A study of Mus musculus with 12 samples.

Results

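A set of 9 genes of acetylcholine signaling was followed through the amygdala of individual mice: the 5 muscarinic receptors Chrm1, Chrm2, Chrm3, Chrm4 and Chrm5, the nicotinic subunits Chrna4, Chrna7 and Chrnb2, and Ache, which encodes acetylcholinesterase. They were taken by symbol, through their Ensembl identifiers in GENCODE M21, so that 9 of the 47729 genes in the count table were members, and all 9 were among the 26963 genes with at least 10 reads over 11 mice that were tested. The study asked which transcripts of the amygdala vary with anxiety-like behavior in untreated animals. Bilateral amygdalae came from 12 nulliparous female C57/BL6 mice, an inbred strain, which were bought at 7 weeks of age, tested in the elevated plus maze at 9 weeks, in a light/dark box at 10 weeks and in a three-chamber social interaction test at 11 weeks. No mouse carried a transgene and none was given a drug. One stranded mRNA library was made per mouse and all were sequenced in a single run.

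The labels call mice 3, 7 and 12 less anxious (n = 3), mice 1, 4, 8 and 11 anxious (n = 4) and mice 2, 6, 9 and 10 more anxious (n = 4), and give mouse 5 no state. The paper left mouse 5 out as a clear outlier in a principal component analysis of expression. The states were cut as tertiles from the second principal component of the same expression data. A difference between them is therefore not independent of expression, whereas the behavior scores in the labels were measured apart from expression. The paper chose this component because it correlated highly with the maze and light/dark scores, so the groups and those scores are linked. Mouse 6, labeled more anxious, had the highest shares of time (46.6%) and distance (41.9%) in the light and of open-arm time (29.2%). On the second component as recomputed here, where less anxious mice scored highest, mouse 6 had 0.280. This was above the anxious mice 1 (-4.40) and 11 (-2.88), so the order of the labels was not fully reproduced. Depth ran from 31745630 to 45142355 estimated counts in the 11 mice. The central amygdala markers Prkcd, Tac2, Crh, Cyp26b1 and Scn4b summed to between 45.9 and 190 CPM (reads relative to the size of the library) and the glutamatergic markers, Slc17a7 among them, to between 781 and 1602 CPM, so the labeled tissue was present in every library. Markers of striatal and intercalated neurons (124 to 529 CPM) and oligodendrocytes (964 to 2209 CPM) varied between mice as well. Pituitary hormone transcripts (Prl, Gh and Pomc) summed to 55.7 CPM in mouse 4 and 13.7 CPM in mouse 11, against 1.11 to 4.94 CPM in the other 9. Each mouse is a separate animal, and fewer cells of a type cannot be told apart from less RNA per cell in such tissue.

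Acetylcholine reaches the amygdala mainly from neurons of the basal forebrain, whose axons are especially dense in the basolateral nucleus. Muscarinic receptors are G protein-coupled: Chrm1, Chrm3 and Chrm5 act through Gq and phospholipase C and can close the potassium channels of the M current, while Chrm2 and Chrm4 act through Gi and lower cyclic AMP. Nicotinic receptors are ligand-gated cation channels, in which Chrna4 and Chrnb2 assemble into the high-affinity receptor of the brain and Chrna7 forms a receptor on its own that passes calcium readily. Acetylcholinesterase ends the signal by splitting acetylcholine in the synapse.

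Levels are given as CPM scaled by edgeR's TMM factors, and comparisons between genes as CPM per kilobase of annotated exon. On the scale of CPM per kilobase, Chrm1 was the most abundant member with a mean of 28.0 ± 3.74 (SD, n = 11 mice), above every other member in all 11 mice. Ache followed with 14.7 ± 1.92 and Chrm4 with 10.4 ± 3.05, and Ache exceeded Chrm4 in 9 of 11 mice. Chrnb2 came next at 5.85 ± 0.498 CPM per kilobase and lay below Chrm4 in 10 of 11 mice. Chrna4 (3.88 ± 0.791) and Chrm3 (3.79 ± 0.812) were neighbors that did not separate, since Chrna4 was the higher in only 5 of 11 mice. Chrm2 (1.53 ± 0.491) and Chrna7 (1.43 ± 0.368) did not separate either, with Chrm2 above in 6 of 11 mice. Chrm5 was the lowest in all 11 mice at 0.509 ± 0.279 CPM per kilobase. The annotated models of Chrm4 and Chrm5 are single exons of 1440 and 1599 bases, against 4505 to 8380 exonic bases in the others, so their levels per kilobase rest on shorter models.

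**Figure D1:**
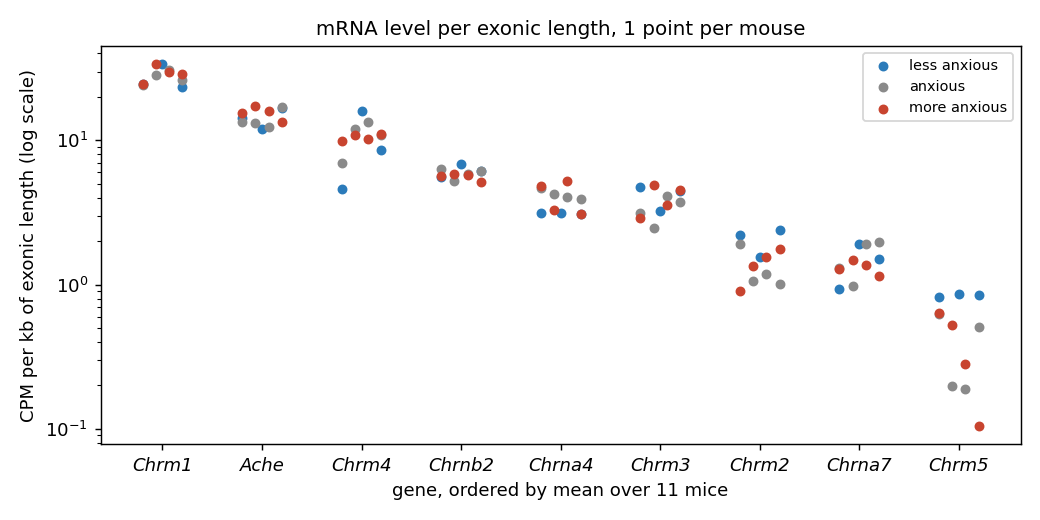
CPM per kilobase of exonic length (log axis) for each gene, 1 point per mouse, colored by anxiety group, genes ordered by their mean over 11 mice. Chrm1 lies at the top between 23.3 and 33.8 and Chrm5 at the bottom between 0.104 and 0.863, and the pairs Chrna4 with Chrm3 and Chrm2 with Chrna7 overlap.

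No member was called at an adjusted p under 0.05 in any comparison of the groups with edgeR's quasi-likelihood test and Benjamini-Hochberg adjustment over 26963 genes. Across the 3 groups 0 of 9 members were called, beside 0.00742% of all genes tested. Between more and less anxious mice 0 of 9 were called (0.0445% of all genes), between anxious and less anxious mice 0 of 9 (0.00371%) and between more anxious and anxious mice 0 of 9 (0.0% of all genes). At an unadjusted p under 0.05, 1 of 9 members, Chrna4, passed across the 3 groups, where 6.35% of all genes did. The same threshold was passed by Chrna4 alone for more against less anxious mice (8.84% of all genes), by Chrna4 and Chrm2 for anxious against less anxious mice (4.74%) and by no member for more anxious against anxious mice (4.57%). The median log2 fold change of the 9 members was -0.057 for more against less anxious mice, with 4 members above 0 and 5 below, and 0.0036 for all genes tested. With DESeq2's likelihood ratio test of the same design, 0 of 9 members were called as well, beside 197 of the 34511 genes tested that way.

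**Figure D2:**
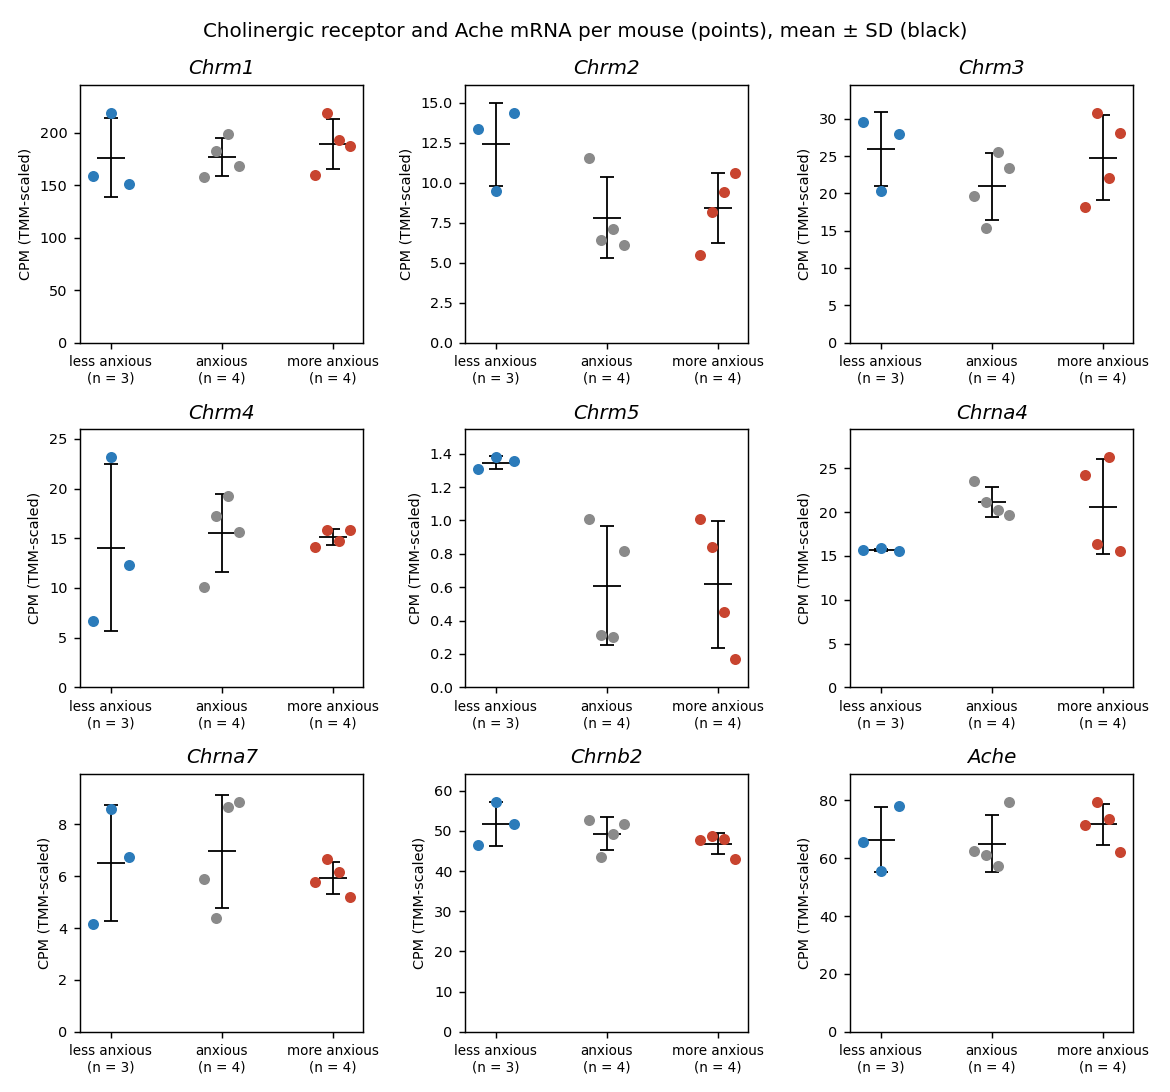
CPM of each member (vertical axis, starting at 0) in less anxious, anxious and more anxious mice, with 1 point per mouse and the mean ± SD in black. The 3 less anxious mice lie close together at the low end for Chrna4, between 15.5 and 15.9 CPM, and at the high end for Chrm5, between 1.31 and 1.38 CPM.

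Chrna4 (ENSMUSG00000027577, chr2:181018380-181043546, minus strand of GRCm38, 8 exonic blocks) was the member that differed most between the groups in size relative to its error. Its level was 15.6, 15.9 and 15.5 CPM in the less anxious mice 3, 7 and 12. In the anxious mice 1, 4, 8 and 11 it was 23.6, 21.2, 20.3 and 19.7 CPM. The more anxious mice 2, 6, 9 and 10 had 24.3, 16.4, 26.3 and 15.5 CPM. All 4 anxious mice therefore lay above all 3 less anxious mice, a separation seen upward in 3.02% of all genes tested. The more anxious mice split into a high pair (mice 2 and 9) and a pair at the level of the less anxious mice (mice 6 and 10), so these groups overlapped. The mean (± SD) was 15.7 ± 0.167 CPM in the 3 less anxious mice, and it was 21.2 ± 1.71 CPM in the 4 anxious and 20.6 ± 5.45 CPM in the 4 more anxious mice. With the first principal component as a covariate, the log2 fold change was 0.46 ± 0.17 (SE) for anxious against less anxious mice (edgeR unadjusted p = 0.0181, adjusted p = 0.987) and 0.42 ± 0.17 for more against less anxious mice (unadjusted p = 0.0283, adjusted p = 0.494). The difference across the 3 groups had an adjusted p of 0.757. No relation of Chrna4 with a cell type marker list had an unadjusted permutation p under 0.05. The r farthest from 0 was -0.53, with astrocyte markers (permutation p = 0.0982, adjusted p = 0.580; r = -0.18 without mice 7 and 9). With choroid plexus markers r was -0.48 (permutation p = 0.133, adjusted p = 0.629; r = -0.87 without mice 7 and 10). The part of the markers in the Chrna4 values was not tested.

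Chrnb2 (ENSMUSG00000027950, chr3:89746195-89764632, minus strand), the partner subunit of Chrna4, was the steadiest member. It measured 46.4, 57.3 and 51.6 CPM in the less anxious mice 3, 7 and 12, and 52.7, 43.5, 49.2 and 51.8 CPM in the anxious mice 1, 4, 8 and 11. The more anxious mice 2, 6, 9 and 10 had 47.7, 48.6, 47.9 and 42.9 CPM. The 3 groups overlapped, and the coefficient of variation over 11 mice was 8.50%, above that of only 23.6% of the genes of like level. Every other member varied more than most genes of like level, from above 65.3% of them for Ache to above 92.0% for Chrm4. The log2 fold change of more against less anxious mice was -0.16 ± 0.10 (SE, adjusted p = 0.725). Chrnb2 shares 1365 exonic bases with Adar on the opposite strand, and whether the counting used the strand is not given in the sources used here, so reads of this stretch may belong to either gene. Its r with the choroid plexus markers was 0.74 (permutation p = 0.00927, adjusted p = 0.230; rho = 0.67, permutation p = 0.0280, adjusted p = 0.365; r = 0.43 without mice 7 and 10) and with the pan-neuronal markers -0.60 (permutation p = 0.0493, adjusted p = 0.376; rho = -0.55, permutation p = 0.0885, adjusted p = 0.548; r = -0.36 without mice 10 and 11). With the GABA neuron markers its rho was 0.64 (permutation p = 0.0407, adjusted p = 0.403) and its r 0.54 (permutation p = 0.0857, adjusted p = 0.566; r = 0.60 without mice 1 and 6). These p-values were adjusted over 99 relations of 9 members with 11 marker lists, and the part of the markers in the Chrnb2 values was not tested.

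Because the subunits assemble together, the ratio of Chrna4 to Chrnb2 was taken within each mouse, per kilobase. It was 0.563, 0.462 and 0.502 in the less anxious mice 3, 7 and 12. The anxious mice 1, 4, 8 and 11 had ratios of 0.747, 0.812, 0.688 and 0.634, all above those of the less anxious mice. The Chrna4 level alone already separated these groups and Chrnb2 was the steadiest member, so this is not a second result. How often ratios of other genes separate in this way was not counted. In the more anxious mice 2, 6, 9 and 10 the ratio was 0.848, 0.563, 0.915 and 0.604, the lowest of which equals the highest of the less anxious mice to 3 digits (0.5634 in mouse 6 and 0.5625 in mouse 3). Over 11 mice the log2 CPM of both subunits had a Pearson r of -0.050 with each other.

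Chrna7 (ENSMUSG00000030525, chr7:63098692-63212569, minus strand) ranged from 4.17 CPM in mouse 3 to 8.88 CPM in mouse 11. The less anxious mice 3, 7 and 12 had 4.17, 8.61 and 6.72 CPM, the anxious mice 1, 4, 8 and 11 had 5.89, 4.39, 8.67 and 8.88 CPM, and the more anxious mice 2, 6, 9 and 10 had 5.76, 6.65, 6.14 and 5.20 CPM. The groups overlapped throughout, and the more anxious mice had the narrowest spread (SD 0.613 CPM against 2.23 in less anxious and 2.19 in anxious mice). The log2 fold change of more against less anxious mice was -0.16 ± 0.25 (SE, adjusted p = 0.911). Over the 11 mice Chrna7 varied together with Chrnb2, with a Pearson r of 0.73 and a Spearman rho of 0.76 of their log2 CPM, the highest Pearson r among the 36 pairs of members. These coefficients describe values that come from the same 11 libraries.

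Of the muscarinic receptors of the Gq arm, Chrm1 and Chrm3 had the higher counts, and neither passed the adjusted test in any contrast. Chrm1 (ENSMUSG00000032773, chr19:8663789-8683587, plus strand) measured 159, 219 and 151 CPM in the less anxious mice 3, 7 and 12. It was 158, 183, 199 and 169 CPM in the anxious mice 1, 4, 8 and 11, and 160, 219, 193 and 187 CPM in the more anxious mice 2, 6, 9 and 10. Mouse 7, less anxious, and mouse 6, more anxious, had the highest values, and the log2 fold change of more against less anxious mice was 0.06 ± 0.11 (SE, adjusted p = 0.928).

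Chrm3 (ENSMUSG00000046159, chr13:9875486-10360847, minus strand) was present at 29.5, 20.4 and 28.0 CPM in the less anxious mice 3, 7 and 12. The anxious mice 1, 4, 8 and 11 had 19.7, 15.3, 25.5 and 23.4 CPM, and the more anxious mice 2, 6, 9 and 10 had 18.1, 30.8, 22.1 and 28.1 CPM. The groups overlapped, with a log2 fold change of more against less anxious mice of -0.06 ± 0.23 (SE, edgeR adjusted p = 0.975). It was -0.30 ± 0.23 for anxious against less anxious mice (adjusted p = 0.988) and 0.24 ± 0.20 for more anxious against anxious mice (adjusted p = 0.999). Errors of this size do not show that the groups were alike. Chrm3 went against Chrna4 from mouse to mouse, with a Pearson r of -0.65 and a Spearman rho of -0.68 over 11 mice, the lowest of the 36 pairs. Its r with the pituitary transcripts was -0.61 (permutation p = 0.0413, adjusted p = 0.376; rho = -0.51, permutation p = 0.115, adjusted p = 0.568), and -0.33 without mice 4 and 11, on which the relation rests.

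Chrm5 (ENSMUSG00000074939, chr2:112479171-112480769, minus strand) was covered by between 6 and 55 reads per mouse. Its levels of 1.31, 1.38 and 1.36 CPM in the less anxious mice 3, 7 and 12 were the 3 highest of the 11. The anxious mice 1, 4, 8 and 11 had 1.01, 0.315, 0.2998 and 0.815 CPM and the more anxious mice 2, 6, 9 and 10 had 1.01, 0.839, 0.453 and 0.167 CPM. The less anxious mice thus lay above both other groups without overlap, which was the case downward for 2.48% of all genes between anxious and less anxious mice and for 3.91% between more and less anxious mice. The log2 fold change was -1.14 ± 0.53 (SE) for anxious (adjusted p = 0.987) and -1.09 ± 0.54 for more anxious against less anxious mice (adjusted p = 0.609), neither past the threshold. Transcripts of choroid plexus were also highest in less anxious mice on average. Its 4 markers (Ttr, Kcnj13, Folr1 and Clic6), each with reads in all 11 mice, summed to 10.8 to 15.8 CPM in less anxious, 7.31 to 9.42 in anxious and 4.70 to 10.97 in more anxious mice. The Pearson r of Chrm5 with this sum was 0.83 over 11 mice (permutation p = 0.00143, adjusted p = 0.142; r = 0.70 without mice 7 and 10), and the Spearman rho was 0.80 (permutation p = 0.00459, adjusted p = 0.227). Chrm5 also had an r of 0.66 with the GABA neuron markers (permutation p = 0.0259, adjusted p = 0.321; rho = 0.65, permutation p = 0.0332, adjusted p = 0.365; r = 0.78 without mice 1 and 6) and of -0.62 with the pan-neuronal markers (permutation p = 0.0437, adjusted p = 0.376; rho = -0.55, permutation p = 0.0878, adjusted p = 0.548; r = -0.39 without mice 10 and 11). The 3 GABA neuron markers summed to 634 to 759 CPM in less anxious, 564 to 816 in anxious and 510 to 780 in more anxious mice, and the 4 pan-neuronal markers to 3344 to 3646, 3238 to 3834 and 3503 to 4435 CPM. With the astrocyte markers, which summed to 1063 to 1298, 894 to 1047 and 795 to 1011 CPM, the rho of Chrm5 was 0.66 (permutation p = 0.0302, adjusted p = 0.365) and its r 0.52 (permutation p = 0.0996, adjusted p = 0.580; r = 0.42 without mice 7 and 9). The part of these markers in the difference of Chrm5 was not tested.

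Of the Gi-coupled receptors, Chrm2 (ENSMUSG00000045613, chr6:36388084-36528414, plus strand), the autoreceptor of cholinergic terminals, had its lowest values in anxious and more anxious mice without passing the adjusted test. It measured 13.4, 9.46 and 14.4 CPM in the less anxious mice 3, 7 and 12. The anxious mice 1, 4, 8 and 11 had 11.6, 6.41, 7.11 and 6.13 CPM and the more anxious mice 2, 6, 9 and 10 had 5.49, 8.18, 9.41 and 10.6 CPM. Mouse 1 among the anxious and mouse 10 among the more anxious mice exceeded the lowest less anxious mouse, so the groups overlapped. The log2 fold change was -0.57 ± 0.24 (SE) for anxious against less anxious mice (edgeR unadjusted p = 0.0328, adjusted p = 0.987) and -0.48 ± 0.24 for more against less anxious mice (unadjusted p = 0.0642, adjusted p = 0.604).

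Marker transcripts of 4 lists moved with Chrm2 at an unadjusted p under 0.05. Its Pearson r with the summed central amygdala markers was 0.75 over 11 mice (permutation p = 0.00724, adjusted p = 0.230; r = 0.48 without mice 2 and 12) and the Spearman rho 0.73 (permutation p = 0.0144, adjusted p = 0.365). With the oligodendrocyte markers Mbp, Mobp and Mog, r was 0.69 (permutation p = 0.0139, adjusted p = 0.230; r = 0.70 without mice 8 and 11) and rho 0.71 (permutation p = 0.0190, adjusted p = 0.365). With the striatal and intercalated neuron markers, r was 0.70 (permutation p = 0.0200, adjusted p = 0.282; r = 0.53 without mice 4 and 12) and rho 0.70 (permutation p = 0.0201, adjusted p = 0.365). The microglial markers gave an r of 0.61 (permutation p = 0.0469, adjusted p = 0.376; r = 0.57 without mice 2 and 7) and a rho of 0.62 (permutation p = 0.0474, adjusted p = 0.427). Oligodendrocyte markers summed to 1695 to 2153 CPM in less anxious (mean 1943), 964 to 2209 in anxious (mean 1545) and 1504 to 1945 in more anxious mice (mean 1756). Striatal and intercalated markers summed to 181 to 529, 124 to 244 and 129 to 358 CPM, and microglial markers to 160 to 194, 144 to 177 and 132 to 166 CPM, in the same order of groups. The 5 central amygdala markers summed to 97.0 to 190 CPM in less anxious, 52.8 to 125 in anxious and 45.9 to 114 in more anxious mice. All markers of these 4 lists were detected in every mouse, and their part in the Chrm2 values was not tested. Of the 99 relations between members and marker lists, 13 had a permutation p of Pearson's r under 0.05 and 0 passed after adjustment.

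Chrm4 (ENSMUSG00000040495, chr2:91927249-91928688, plus strand), which is known from striatal projection neurons, varied most widely in the less anxious mice. Mice 3, 7 and 12 of that group had 6.67, 23.2 and 12.3 CPM, and so held both the lowest and the highest value of all 11 mice. The anxious mice 1, 4, 8 and 11 had 10.1, 17.2, 19.2 and 15.6 CPM, whereas the more anxious mice 2, 6, 9 and 10 stayed between 14.1 and 15.8 CPM. The log2 fold change of more against less anxious mice was 0.11 ± 0.24 (SE, adjusted p = 0.942). Over the 11 mice Chrm4 varied together with Chrm1 (Pearson r = 0.72, Spearman rho = 0.83). Both also followed the summed glutamatergic markers, Chrm1 with a Pearson r of 0.71 (permutation p = 0.0139, adjusted p = 0.230; rho = 0.83, permutation p = 0.00255, adjusted p = 0.227; r = 0.70 without mice 9 and 12) and Chrm4 with an r of 0.62 (permutation p = 0.0444, adjusted p = 0.376; rho = 0.67, permutation p = 0.0280, adjusted p = 0.365; r = 0.85 without mice 9 and 12). Those markers summed to 781 to 1244 CPM in less anxious, 1038 to 1207 in anxious and 1074 to 1602 in more anxious mice. With the striatal and intercalated neuron markers, Chrm4 had an r of 0.071 (permutation p = 0.844) and a rho of 0.0091 (permutation p = 0.990).

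Ache (ENSMUSG00000023328, chr5:137287519-137294466, plus strand) was expressed at similar levels in the groups. The less anxious mice 3, 7 and 12 had 65.7, 55.5 and 78.0 CPM, the anxious mice 1, 4, 8 and 11 had 62.4, 61.1, 57.2 and 79.3 CPM, and the more anxious mice 2, 6, 9 and 10 had 71.5, 79.6, 73.4 and 62.3 CPM. The groups overlapped, and the log2 fold change of more against less anxious mice was 0.15 ± 0.14 (SE, adjusted p = 0.822). Its Pearson r with the summed endothelial markers (Cldn5, Flt1, Pecam1 and Adgrl4) was -0.71 over 11 mice (permutation p = 0.0135, adjusted p = 0.230; r = -0.37 without mice 7 and 8; rho = -0.57, permutation p = 0.0705, adjusted p = 0.548), so that the relation rests on those mice. With an offset for GC content the log2 fold change of Ache between more and less anxious mice was -0.025, so its direction depends on that choice.

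**Figure D3:**
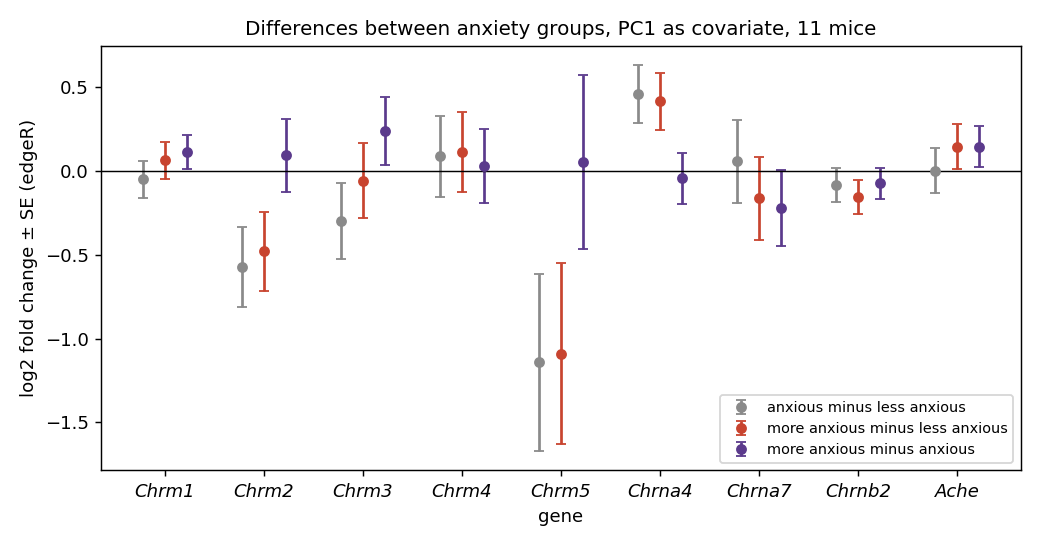
Log2 fold change ± SE (vertical axis) of each member for the 3 contrasts between groups, from the edgeR fit with the first principal component as covariate in 11 mice. Chrna4 lies above 0 and Chrm2 and Chrm5 below 0 in both contrasts with less anxious mice, the error bars of Chrm5 being the widest, and no point passed the adjusted threshold.

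The behavior scores gave a test that does not pass through the groups. The maze and light/dark scores are still linked to the groups through the paper's choice of component. A group difference and a relation with these scores in the same mice are therefore not independent support for each other. In all, 7 scores were used: the share of time and of distance spent in the light side of the light/dark box, the share of time on the open arms and the total arm entries in the elevated plus maze, and the box:zone ratio, which sets time in the box beside a stranger mouse against time in the zone, after 3, 5 and 10 min of the social test. Each was entered as a number in an edgeR fit, so that a coefficient is the change in log2 level per SD of the score. At an adjusted p under 0.05, 0 of 9 members were associated with any score. Among all genes tested, time in the light called 0.00742%, and distance in the light, open-arm time and total entries each called 0.0%. The social ratio called 0.015% of all genes when taken at 3 min, 0.0111% when taken at 5 min and 0.0223% when taken at 10 min. At an unadjusted p under 0.05, 6 of the 63 combinations of member and score passed, 2 for total entries (6.97% of all genes), 1 for open-arm time (5.84%) and 3 for distance in the light (5.8%). None passed for time in the light (3.55% of all genes) or for the social ratio (7.65% of all genes with the 3 min, 6.56% with the 5 min and 8.05% with the 10 min value).

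Chrna4 was lowest in the mice that made the most entries, although the relation did not pass the adjusted threshold. The mice with 6, 15 and 22 entries (2, 1 and 9) had the 3 highest levels, at 24.3, 23.6 and 26.3 CPM. The 3 mice between 24 and 30 entries other than mouse 3 (4, 11 and 8) had 21.2, 19.7 and 20.3 CPM. Mouse 3 with 29 entries, mice 7 and 10 with 31, mouse 6 with 36 and mouse 12 with 42 had between 15.5 and 16.4 CPM. The high and the low pair of the more anxious group thus differed in entries as well, with 6 and 22 in mice 2 and 9 and 36 and 31 in mice 6 and 10. The change was -0.23 ± 0.06 (SE) on the log2 scale per SD of 9.85 entries (unadjusted p = 0.00123, adjusted p = 0.575 over all genes by edgeR's quasi-likelihood test). Pearson's r of log2 CPM with entries was -0.79 (permutation p = 0.00168, adjusted p = 0.106 over 63 relations) and Spearman's rho was -0.83 (permutation p = 0.00237, adjusted p = 0.149), in n = 11 mice. Without mice 1 and 2, the farthest from the median number of entries, r was -0.75.

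The pattern of Chrm3 had the opposite sign. Its 4 lowest levels, 15.3, 18.1, 19.7 and 20.4 CPM, belonged to mice with 24, 6, 15 and 31 entries, and its 4 highest, 30.8, 29.5, 28.1 and 28.0 CPM, to mice with 36, 29, 31 and 42 entries. The change was 0.22 ± 0.07 (SE) on the log2 scale per SD of entries (unadjusted p = 0.00561, adjusted p = 0.595 by edgeR). Pearson's r was 0.68 (permutation p = 0.0186, adjusted p = 0.390) and Spearman's rho 0.72 (permutation p = 0.0163, adjusted p = 0.513), and r was 0.61 without mice 1 and 2. Neither relation passed the adjustment.

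**Figure D4:**
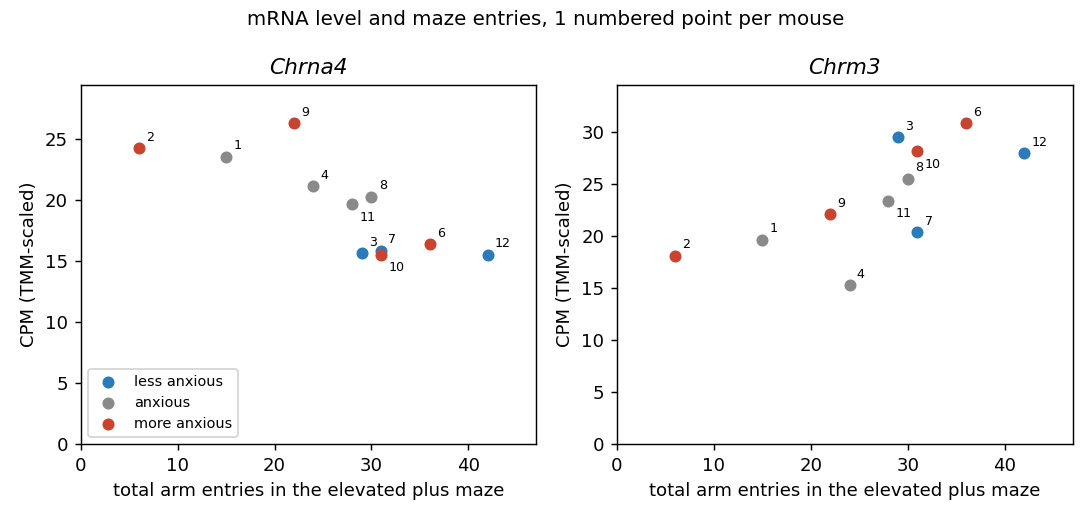
CPM of Chrna4 (left) and Chrm3 (right) against total arm entries in the elevated plus maze, 1 numbered point per mouse, colored by anxiety group. Chrna4 declines from 24.3 CPM in mouse 2 (6 entries) to 15.5 CPM in mouse 12 (42 entries), while Chrm3 is 18.1 and 28.0 CPM in the same mice.

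The other associations that passed without adjustment concerned the same 2 genes and Chrm2. Chrna4 was lower with more open-arm time, by a log2 change of -0.19 ± 0.07 (SE) per SD (edgeR unadjusted p = 0.0122, adjusted p = 0.727). Its r with open-arm time was -0.62 (permutation p = 0.0456, adjusted p = 0.570) and its rho -0.47 (permutation p = 0.146, adjusted p = 0.674). Leaving out mice 2 and 10, which had the least and nearly the least open-arm time, gave an r of -0.88. With distance in the light, the log2 change per SD was -0.16 ± 0.07 for Chrna4, 0.17 ± 0.08 for Chrm3 and 0.26 ± 0.11 for Chrm2 (edgeR unadjusted p = 0.0391, 0.0426 and 0.0372, each with an adjusted p of 0.848). Mouse 12 had the highest Chrm2 level, and its distance in the light of 34.5% was exceeded by mice 1, 3 and 6. Mouse 2, which had the lowest Chrm2 level, covered the smallest share of the 11 mice at 16.6%.

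In the social test, Chrnb2 had the Pearson r farthest from 0 among the members. Its r with the box:zone ratio at 3 min was -0.73 in the 10 mice with that score (permutation p = 0.0157, adjusted p = 0.390), and its rho was -0.61 (permutation p = 0.0670, adjusted p = 0.674). Without mice 3 and 9, r was -0.82. The edgeR fit gave a log2 change of -0.08 ± 0.04 (SE) per SD with an unadjusted p of 0.0626. Taken after 5 and 10 min, the ratio gave an r of -0.21 and -0.22. The 63 correlations held 4 with a permutation p of Pearson's r under 0.05, all named above, and 0 after adjustment. Of the remaining members, Chrm5 had a Spearman rho of -0.65 with the ratio at 3 min (permutation p = 0.0482, adjusted p = 0.674) and an r of -0.51 (permutation p = 0.135, adjusted p = 0.57), and Chrm1, Chrm4, Chrna7 and Ache had no relation with an unadjusted p under 0.05.

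**Figure D5:**
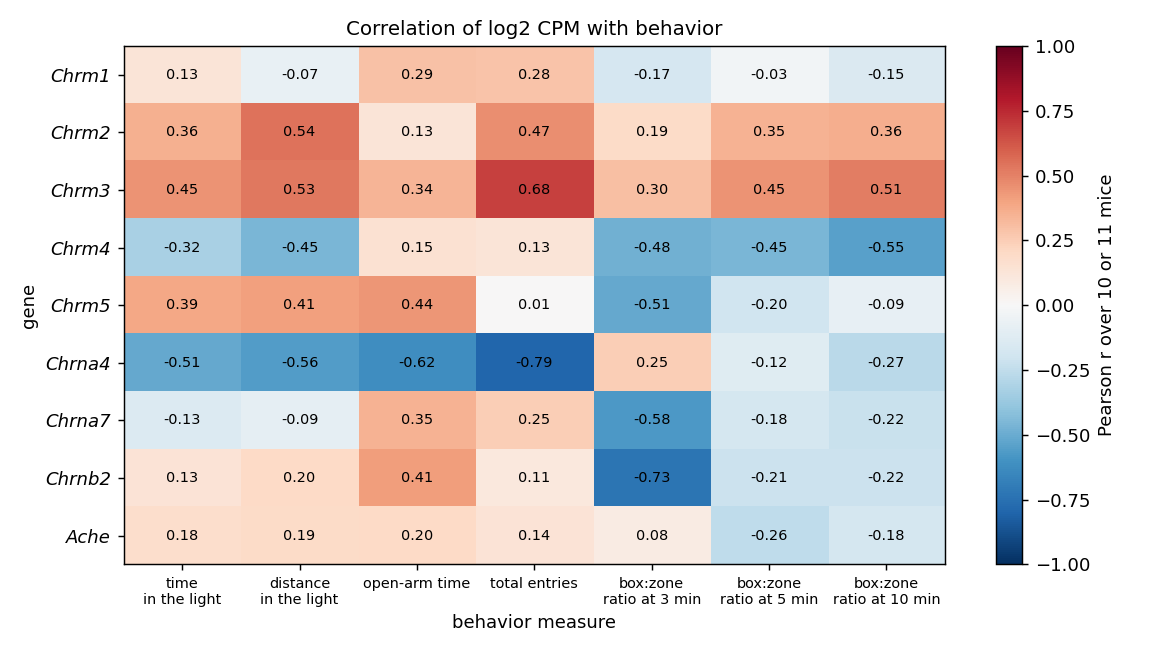
Pearson r of log2 CPM with each of 7 behavior scores (columns) for the 9 members (rows), over 11 mice, or 10 for the ratio at 3 min. The deepest cells are Chrna4 with total entries (-0.79), Chrnb2 with the ratio at 3 min (-0.73) and Chrm3 with total entries (0.68), none of which passed the adjustment.

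The sequence before the annotated gene start is shown for the pairs of members with the lowest and the highest Pearson r across mice, Chrna4 with Chrm3 and Chrna7 with Chrnb2. The set of promoter sequences used here, placed at RefSeq starts (GRCm38.p6), covered 8 of the 9 members, all but Chrm1. The windows searched were the 250 bases before the RefSeq start, and the parts of them outside annotated exons are printed, in the direction of the gene, with GC boxes (GGGCGG or its reverse complement CCGCCC) in capitals. The Chrna4 stretch (chr2:181039306-181039427, minus strand) ends 128 bases before the RefSeq start and lies in an intron of a longer GENCODE model. The Chrm3 stretch is chr13:10360848-10361053, the Chrna7 stretch chr7:63212570-63212776 and the Chrnb2 stretch chr3:89764633-89764882, all on the minus strand.
Chrna4: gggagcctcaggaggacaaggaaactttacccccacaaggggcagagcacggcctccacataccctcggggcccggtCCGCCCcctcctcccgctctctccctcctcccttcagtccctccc
Chrm3: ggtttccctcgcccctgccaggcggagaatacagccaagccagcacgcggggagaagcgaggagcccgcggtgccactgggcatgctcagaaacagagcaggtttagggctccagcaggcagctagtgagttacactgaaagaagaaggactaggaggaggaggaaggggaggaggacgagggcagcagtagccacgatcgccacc
Chrna7: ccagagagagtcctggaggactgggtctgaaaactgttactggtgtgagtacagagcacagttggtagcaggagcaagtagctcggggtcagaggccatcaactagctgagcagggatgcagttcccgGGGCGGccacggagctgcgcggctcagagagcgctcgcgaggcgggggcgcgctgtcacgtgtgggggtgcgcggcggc
Chrnb2: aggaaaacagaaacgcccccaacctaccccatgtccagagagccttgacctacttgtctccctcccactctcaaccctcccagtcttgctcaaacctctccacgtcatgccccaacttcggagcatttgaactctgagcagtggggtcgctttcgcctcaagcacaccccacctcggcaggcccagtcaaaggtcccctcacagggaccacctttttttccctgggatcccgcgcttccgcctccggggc
The whole Chrna4 window was 74.4% GC and held 3 GC boxes, 1 of them in the stretch printed, and the Chrna7 window (67.2% GC) held 1. Neither the Chrm3 (61.2% GC) nor the Chrnb2 window (59.6% GC) held one. Among 32851 promoter windows of the same length, 32.7% held a GC box on either strand and the median GC content was 52.4%. The half-site of the cyclic AMP response element (TGACG or CGTCA) was found in the Chrnb2 window and in 17.8% of all windows, and the E-box CACGTG in the Chrna7 and Ache windows and in 6.02% of all windows.

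The genes whose log2 CPM was most like that of a member were sought among 15891 genes with a mean of at least 1 CPM, for the 3 members with the smallest unadjusted p across groups. For Chrna4 they were Comtd1 (r = 0.95), 9330020H09Rik (r = 0.93) and Nsmce3 (r = 0.90) over 11 mice. For Chrm2 they were Gm27533, Upb1 and Epb41l2 (r = 0.94 each). For Chrm5 they were Itga11, Cers6 (r = 0.90 each) and Gfra2 (r = 0.89). These are the top ranks of a long list and describe shared libraries, not a test.

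The wider cholinergic system was read from 61 other genes, of which 60 were tested, Chrng having too few reads. With edgeR 0 of 60 were called across the groups or with any behavior score, and at an unadjusted p under 0.05 between more and less anxious mice 5 were higher and 5 lower, against the 8.84% of all genes given above. By role, the tested genes comprised 10 of acetylcholine synthesis, transport and breakdown (0 higher and 1 lower at the unadjusted threshold), 12 other nicotinic subunits (0 and 0), 10 nicotinic receptor chaperones and modulators (2 and 1), 9 of the muscarinic Gq arm and M current (0 and 2), 12 of the Gi arm (2 and 1) and 7 of cholinergic neuron identity and trophic support (1 and 0).

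The transcripts of cholinergic neurons themselves were low and rested on single mice. Chat, which makes acetylcholine, was at 2.89 CPM in mouse 12 and 1.58 CPM in mouse 1, and between 0.0526 and 0.689 CPM in the other 9. The vesicular transporter Slc18a3 was likewise highest in mouse 12 (1.54 CPM) and mouse 1 (1.06 CPM). Slc5a7, the choline transporter of these neurons, was at 6.46 CPM in mouse 12 and 3.74 CPM in mouse 1, and between 0.762 and 2.58 CPM elsewhere, with the lowest log2 fold change of more against less anxious mice among the listed genes over 1 CPM (-1.34 ± 0.54 SE; adjusted p = 0.504 with edgeR). Mice 12 and 1 were also among the 3 highest for Chrm2. Bche, the second enzyme that breaks down acetylcholine, ranged from 2.40 CPM in mouse 6 to 4.61 CPM in mouse 12. Colq, which anchors acetylcholinesterase, had the highest log2 fold change among the listed genes over 1 CPM (3.36 ± 1.74 SE, adjusted p = 0.654 with edgeR). This change came from mouse 2 at 11.3 CPM, against 0.0834 to 0.339 CPM in the other 10 mice. The mean of Colq, 1.23 CPM, passed the limit of 1 CPM only through mouse 2, so its rank rests on that value. Gnai2 ranked next. Gnai2, a Gi alpha subunit named here after its values were seen, was at 192 to 328 CPM in more anxious, 117 to 195 in anxious and 119 to 149 in less anxious mice, with a log2 fold change of 0.99 ± 0.18 (SE) for more against less anxious mice that edgeR did not call (adjusted p = 0.110).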

How the data were processed

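Bilateral amygdala mRNA of 12 mice was sequenced as single-end 75 bp reads. Where needed, the authors used cutadapt for trimming. They checked reads by STAR alignment to mm10, quantified transcripts with Salmon and summed them to genes with tximport, and the estimated counts were deposited by the authors as whole numbers without normalization. Tool versions, annotation release and strand setting are not given in the sources used here. Groups and behavior scores came from the sample labels, with no group for mouse 5. Gene names and coordinates were taken from GENCODE M21 (99.1% of identifiers had an entry).

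Genes that summed to 10 or more reads over 11 mice were tested in edgeR 4.0.16 (R 4.3.3) with TMM factors, robust quasi-likelihood fits and the first principal component as covariate, for both group coefficients together and for each contrast. Behavior scores were standardized and fitted singly. P-values were adjusted by Benjamini-Hochberg over all genes tested, with a threshold of 0.05. Log2 CPM used a prior count of 2, and correlations used 100000 two-sided permutations, whose p-values were adjusted over 63 member and score relations or 99 member and marker list relations. The p-values measure the spread between mice, 1 library each, and the depth of 31745630 to 45142355 counts leaves counting error small except for Chrm5. DESeq2 1.42.0, other filters, offsets, covariates, codings and the omission of each mouse in turn were tried. Python 3.11.15, scipy 1.17.1 and matplotlib 3.10.9 were used.

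All 9 members were named, and of the other cholinergic lists Chat, Slc18a3, Slc5a7, Bche and the genes with the highest and lowest log2 fold change over a mean of 1 CPM. Of the oligodendrocyte markers, 3 were summed, a choice made after seeing the data, and 1 listed gene is not reported here. The members and the lists were chosen with earlier results of these data known. The procedure was tested on simulated data of 26963 genes: across 3 groups edgeR recovered 91 of 100 genes changed by 1 on the log2 scale and 100 of 100 changed by 2, with 9 false calls among 200, and in data without change it made 0 calls. The changed genes all lay above the level of Chrm5, and their spread followed the trend over all genes. Group differences below 1 were not simulated, and every member but Chrnb2 varies more than most genes of like level. These rates therefore do not give the power for the members.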

Additional observations from a re-analysis of the deposited data

Results flagged for a closer look

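In the more anxious group, the Chrnb2 level of mouse 10, 42.9 CPM, lay apart from the 47.7 to 48.6 CPM of mice 2, 6 and 9, with a gap to the nearest mouse that took more of the group's range than Dixon's 95% limit allows. It was the 1 value of 18 sets of 4 mice (9 members in 2 groups) that did so, and chance gives about 1 in 20. Without this mouse the direction of the difference from less anxious mice was the same.

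Mouse 5, which the labels put in no group, had a Chrnb2 level of 58.8 CPM on a scale set over 12 mice, above the 42.9 to 57.3 CPM of the other 11. It was used in no comparison of the groups.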

How the results depend on the processing

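Of 476 values under alternatives, 450 kept their direction and side of the threshold, 17 counts moved by more than 1.5 times and 9 values changed sign. No member was called under any of the 22 fits of the groups or the 125 fits of behavior scores. The smallest adjusted p of a member was 0.295 for the groups and 0.0798 for the scores, the latter for Chrna4 with total entries in DESeq2's test (edgeR 0.575). Chrna4 kept a log2 change of -0.25 to -0.21 per SD of entries in all of its fits, and Chrm3 one of 0.20 to 0.25.

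Counts over all genes depended on the processing. The 2 genes called across the groups became 9 without a count filter, 0 with a mean of at least 1 CPM, 197 with DESeq2, 1 without the robust option, 0 without the covariate, 1 with a length offset and 22 with the group order as a number, and ranged from 0 to 4 when single mice were left out. Of the other cholinergic genes, 0 were called, but 1, Gnai2, was with DESeq2 and when mouse 10 was left out, a range of 0 to 1. The cause was not tested. DESeq2 also called Colq, a gene whose level was high in mouse 2 alone, with total entries and distance in the light, and edgeR called Gnai2 with distance in the light when mouse 6 was left out. Over all genes, DESeq2 called 14 with time in the light, 26 with distance in the light, 43 with open-arm time, 45 with entries, and 164, 43 and 111 with the ratio at 3, 5 and 10 min, against 2, 0, 0, 0, 4, 3 and 6 by edgeR. Leaving out mouse 6 raised edgeR's counts to 16 for time and 14 for distance in the light, and leaving out mouse 2 gave 5 for entries.

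For more against less anxious mice, Ache changed sign with a GC offset (-0.025). Leaving out single mice moved the log2 fold change of Chrm1 between -0.018 and 0.18, of Chrm3 between -0.31 and 0.066, of Chrm4 between -0.13 and 0.47 and of Chrna7 between -0.34 and 0.024, so these 4 have no fixed direction. Chrna4 stayed between 0.26 and 0.55, Chrm2 between -0.58 and -0.33, Chrm5 between -1.44 and -0.71, Chrnb2 between -0.21 and -0.072 and Ache between 0.0098 and 0.27. Chrm5 was not tested with a mean of at least 1 CPM. Without the 2 mice farthest from the median of each score, 18 of the 63 correlations changed sign and 0 passed the adjustment (smallest adjusted p = 0.0520). No paired analysis was possible because each library is a different mouse and the labels carry only mouse numbers, so replicate numbers do not link groups. With 6 to 55 reads per mouse, counting error limits Chrm5.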

Other observations

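Mouse 5, which the paper left out as an outlier, had reads in 23768 genes, against 26378 to 28196 in the other 11. It lay within the range of those mice in most members. On a scale set over 12 mice it had 180 CPM of Chrm1, 10.5 of Chrm2, 26.4 of Chrm3, 16.04 of Chrm4, 0.273 of Chrm5, 24.9 of Chrna4, 5.38 of Chrna7 and 62.0 of Ache, each within the range of the 11 others. It made 27 entries in the maze and spent 12.1% of the time in the light, the lowest share of the 12 mice.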
